A study of Mus musculus with 6 samples.

Results

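The 37 genes described here are genes of the meninges and of matrix-producing fibroblasts, taken from a list of symbols. Each was represented by its brightest probe annotated to that gene alone on Affymetrix expression arrays, out of 18193 genes represented in this way. RNA came from the brain tissue, cerebellum in the series title, of 3 Gb5-deficient mice (arrays 4, 5 and 6) and 3 wild-type mice (arrays 1, 2 and 3). Gb5 is the G protein beta subunit encoded by Gnb5, which is found in neurons bound to RGS proteins of the R7 family. The labels name biological replicates and littermates matched for age and sex, and give neither the age, the strain nor how the Gb5 allele was made. All values are log2 signals after the submitters' RMA normalization, so a step of 1 is a doubling, and differences are Gb5-deficient minus wild type.

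The meninges are the membranes around the brain. Their fibroblasts secrete fibrillar collagens and small leucine-rich proteoglycans, the arachnoid layer forms a barrier with epithelial junctions and solute transporters, and forkhead factors direct their development. Fibroblasts of the same kind also sit along larger vessels inside the brain, and some of the genes listed, among them Igf2 and Ptgds, are also expressed by choroid plexus epithelium or by glia. In bulk tissue fewer cells of a type and less RNA per cell cannot be told apart.

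The genotype labels were borne out by Gnb5, which read 3.65, 3.36 and 2.96 on the Gb5-deficient arrays, against 8.80, 8.51 and 8.70 on the wild-type arrays (log2 difference -5.35, limma adjusted p = 4.33e-06). Gb5-deficient array 6 stood apart: its Eif2s3y signal, Y-linked, was 11.80, against 3.19 to 3.43 on the other 5 arrays, and its Xist signal was 8.22, against 11.17 to 11.64. That goes against the label of sex-matched animals, so results are also given without this array. Array medians lay between 6.48 and 6.57, and no pair of arrays was identical (Pearson's r between 0.991 and 0.997 over all probes, which are not independent replicates). Of 14067 genes tested, 5 passed a limma adjusted p of 0.05, which is 0.0355% of them, and 43.3% had a value below 0.

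Of the 37 genes, 36 had a mean signal above the filter of 4.70, the level under which 30% of all probes lie. Over the whole series 14067 of 18193 genes exceeded it, so most genes do. Lumican (Lum), a corneal and fibroblast proteoglycan, was the exception, at 3.78 in Gb5-deficient and 3.77 in wild-type mice. Asporin (Aspn) had a mean of 4.72 over the 6 arrays, with 4.63 in Gb5-deficient and 4.81 in wild-type mice. It exceeded the filter only through its wild-type mean, so its lower value is partly set by the filter. The counts of members and probes below 0 or wholly below wild type include it. No member passed the adjusted threshold; the lowest adjusted p was 0.169, shared by Ccn3 and Foxc2. Values nevertheless leaned to one side: 27 of 36 members were below 0, against 43.3% of all genes. Their median was -0.10, where the median over all genes was 0.03. In 11 of the 36 all Gb5-deficient arrays lay below all wild-type arrays, against 4.82% of all genes, and in 1 (Col5a1) all lay above, against 10.1% of all genes. An unadjusted limma p under 0.05 with a lower value was found for 10 members, and for 2.86% of all genes, and with a higher value for 1 member, and for 5.7% of all genes. A difference of -0.5 or lower was found for 4 members, Ccn3, Foxc2, Slc47a1 and Ogn, and for 0.874% of all genes. Because the list was drawn up with earlier results of these arrays known, these counts describe it and do not test it. Without Gb5-deficient array 6, 29 members were below 0, against 41.5% of all genes, the median was -0.15, and in 16 members both remaining Gb5-deficient arrays lay below all wild-type arrays, against 6.47% of all genes.

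**Figure D1:**
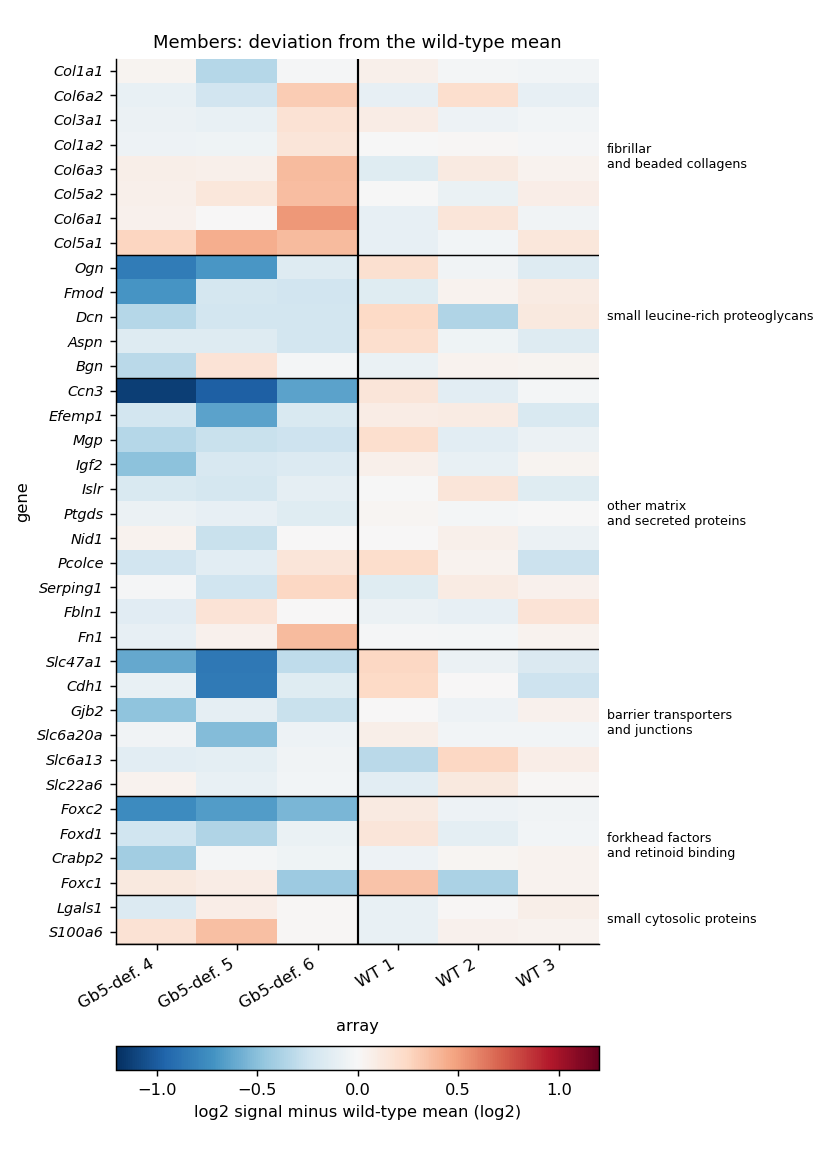
Log2 signal of each of the 36 members above the filter on each array, minus that gene's wild-type mean; columns are arrays, Gb5-deficient left and wild type right, rows are genes grouped by role and ordered by difference, blue is lower and red higher. Ccn3 and Foxc2 are blue on all 3 Gb5-deficient arrays, while most collagens are reddest on array 6 and Col5a1 is red on all 3.

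To set the proteoglycans beside the collagens, 2 genes of each were chosen after their values were seen and the 250 bases upstream of their RefSeq start are shown, on the gene's own strand of GRCm38.p6. Ogn and Fmod had lower values in Gb5-deficient mice, Col5a1 had the highest difference between genotypes among the members above the filter, and Col1a2 had one close to 0. The windows are chr13:49607765-49608014 (Ogn, plus strand), chr1:134037004-134037253 (Fmod, plus strand), chr2:27886175-27886424 (Col5a1, plus strand) and chr6:4505368-4505617 (Col1a2, plus strand). Capitals mark matches, on either strand, to 4 motifs: the TATA box as TATAAA, the CCAAT box as CCAAT, the GC box as GGGCGG and a forkhead core as GTAAACA.
Ogn: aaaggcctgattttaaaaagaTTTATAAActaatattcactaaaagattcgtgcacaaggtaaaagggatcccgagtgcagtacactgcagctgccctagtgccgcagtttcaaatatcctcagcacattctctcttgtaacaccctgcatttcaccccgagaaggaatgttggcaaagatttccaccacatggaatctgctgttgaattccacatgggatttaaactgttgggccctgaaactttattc
Fmod: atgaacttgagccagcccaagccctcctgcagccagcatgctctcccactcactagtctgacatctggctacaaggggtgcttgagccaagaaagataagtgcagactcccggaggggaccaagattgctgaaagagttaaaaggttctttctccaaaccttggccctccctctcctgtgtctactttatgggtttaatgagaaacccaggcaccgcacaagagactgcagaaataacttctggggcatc
Col5a1: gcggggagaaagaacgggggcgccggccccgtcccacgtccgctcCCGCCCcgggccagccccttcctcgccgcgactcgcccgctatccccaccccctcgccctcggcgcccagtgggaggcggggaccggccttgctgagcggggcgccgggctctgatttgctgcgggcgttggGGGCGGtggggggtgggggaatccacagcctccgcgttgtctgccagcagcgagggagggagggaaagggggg
Col1a2: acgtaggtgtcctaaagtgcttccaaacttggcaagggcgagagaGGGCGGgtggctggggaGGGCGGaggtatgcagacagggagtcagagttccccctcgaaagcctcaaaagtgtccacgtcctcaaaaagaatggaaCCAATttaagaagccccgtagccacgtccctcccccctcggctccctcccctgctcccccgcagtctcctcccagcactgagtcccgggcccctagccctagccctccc
The Ogn window held TATAAA letters on both strands, overlapping each other, 229 and 227 bases before the start, and the Fmod window held none of the 4 motifs. The collagen windows held 2 GC boxes each, and that of Col1a2 a CCAAT box 109 bases before the start. G and C made up 42% of the Ogn window and 51.2% of that of Fmod, against 76.4% for Col5a1 and 62% for Col1a2. Over all 32851 windows of this length the median was 52.4%. TATAAA was found in 12.4% of these windows, CCAAT in 33.8%, GGGCGG in 32.7% and GTAAACA in 3.17%. Windows were at hand for 24 of the 37 members, 31 windows in all, and they held these motifs in 3, 9, 16 and 1 windows. These are descriptions of letters and not of binding.

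The fibrillar and beaded collagens, as a group, were not displaced to lower values. Of 8 genes, 2 were below 0, against 43.3% of all genes, and 6 above, with a median of 0.09. None passed in limma, and 1, Col5a1, had an unadjusted p under 0.05 with a higher value, against 5.7% of all genes. Col1a1 and Col1a2, the chains of type I collagen, had differences of -0.11 (95% interval from -0.33 to 0.11) and 0.01 (from -0.17 to 0.20). Col1a2 read 11.04, 11.05 and 11.25 on the Gb5-deficient arrays, against 11.10, 11.12 and 11.09 on the wild-type arrays. The wild-type arrays lay within a narrow band and the Gb5-deficient arrays on either side of it. Col3a1, the chain of type III collagen that is laid down with type I in soft tissue, had a difference of 0.01 (from -0.23 to 0.24).

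Col5a1, a chain of the type V collagen that starts fibrils, read 7.77, 7.94 and 7.89 in Gb5-deficient mice, against 7.41, 7.48 and 7.64 in wild-type mice. The groups did not overlap, and the difference was 0.36 (SE 0.11, limma adjusted p = 0.541). Its second probe gave 0.42 with overlapping groups and a dim one -0.08. Col5a2, the partner chain, had a difference of 0.19. Col6a1, Col6a2 and Col6a3 encode the chains of the beaded filaments of type VI collagen, and their differences were 0.19, -0.01 and 0.17. High values were often those of array 6, which was the highest of the 6 arrays for 6 of the 8 collagens, against 23.3% of all genes. Col6a1 read 9.21, 9.17 and 9.68 on arrays 4, 5 and 6, against 9.06, 9.30 and 9.12 on the wild-type arrays. Without array 6 the median of the collagens was -0.02, 4 of 8 were below 0, against 41.5% of all genes, and Col5a1 stood at 0.35.

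The small leucine-rich proteoglycans bind collagen fibrils and control their thickness and spacing. All 5 members above the filter had values below 0, against 43.3% of all genes, with a median of -0.26. They include Aspn, whose Gb5-deficient mean lay under the filter. None passed in limma, and 2 (Ogn and Fmod) had an unadjusted p under 0.05 with a lower value, against 2.86% of all genes. Osteoglycin (Ogn) read 7.36, 7.50 and 8.05 in Gb5-deficient mice, against 8.39, 8.16 and 8.05 in wild-type mice. Arrays 4 and 5 were well below every wild-type array, while array 6 met wild-type array 3. The difference was -0.56 (SE 0.18, limma adjusted p = 0.553), or -0.77 without array 6. A second Ogn probe read 5.26, 5.29 and 5.64, against 5.84 to 6.26 in wild type, with no overlap.

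Fibromodulin (Fmod) read 10.44, 10.94 and 10.92 in Gb5-deficient mice, against 11.01, 11.19 and 11.25 in wild-type mice. All Gb5-deficient arrays were lower, array 4 most of all. The difference was -0.38 (SE 0.14, limma adjusted p = 0.573), and it was -0.46 without array 6 and -0.22 without array 4. Fmod has 6 probes on this array, and in each of them the groups did not overlap, with differences from -0.55 to -0.38; these probes share a gene and the arrays and are not replicates. Decorin (Dcn) had a difference of -0.26 on its bright probe and 0.21 on a dim one, with overlapping groups on both. Aspn had -0.18 close to the filter. Biglycan (Bgn) had -0.06, and 0.07 without array 4.

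**Figure D2:**
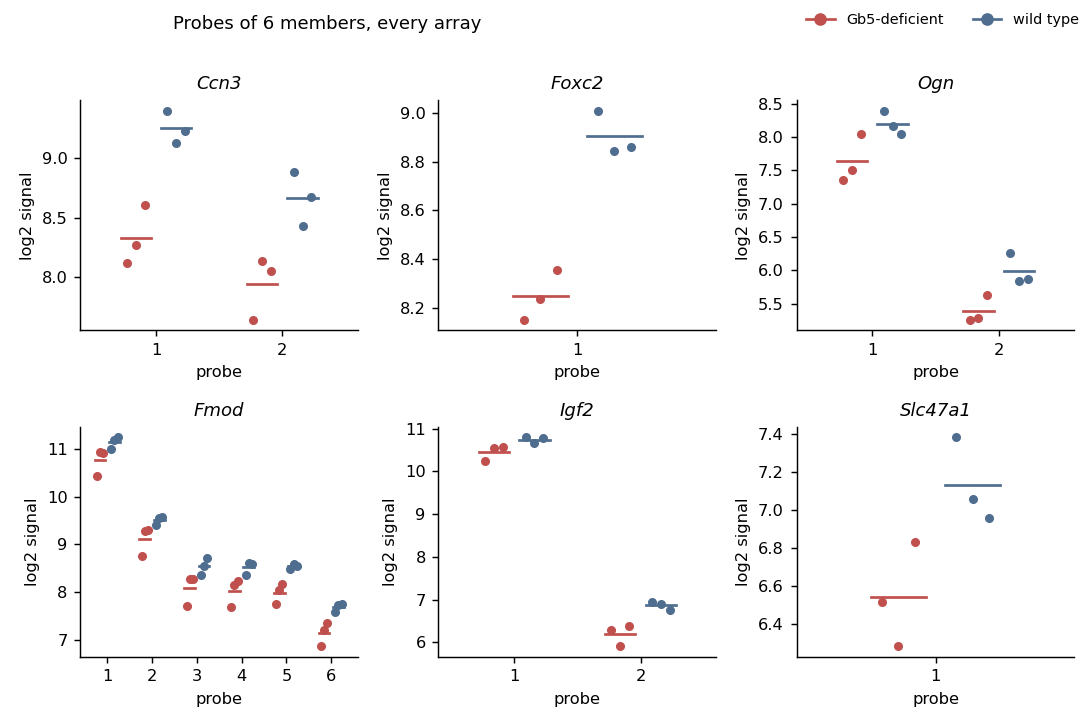
Log2 signal of every probe above the filter for 6 members, Gb5-deficient in red left of wild type in blue; each point is an array and each line the mean of 3, probes are numbered from the brightest, and the vertical axes differ and do not start at 0. The groups are apart on every probe shown except the first of Ogn, where array 6 reads 8.05.

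Among the other matrix and secreted proteins, 9 of 11 had values below 0, against 43.3% of all genes, and the median was -0.10. None passed in limma, and 5 had an unadjusted p under 0.05 with a lower value, against 2.86% of all genes. Ccn3, a matricellular protein that modulates growth factor and integrin signals, read 8.12, 8.27 and 8.61 in Gb5-deficient mice, against 9.39, 9.13 and 9.23 in wild-type mice. The lowest wild-type array exceeded the highest Gb5-deficient array by more than the spread within either group. The difference was -0.92 (SE 0.14, 95% interval from -1.24 to -0.59, limma adjusted p = 0.169), the lowest value among the members. Without array 6 it was -1.05 (adjusted p = 0.146). A second probe gave -0.72, again with no overlap.

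Insulin-like growth factor 2 (Igf2), a growth factor made by meninges and choroid plexus, read 10.25, 10.55 and 10.57 in Gb5-deficient mice, against 10.80, 10.65 and 10.77 in wild-type mice. The groups were close but separate, with a difference of -0.28 (SE 0.11, limma adjusted p = 0.573). The dimmer Igf2 probe, at 6.29, 5.91 and 6.37 against 6.95, 6.89 and 6.76, gave -0.68. Matrix Gla protein (Mgp), an inhibitor of calcification, read 11.20, 11.28 and 11.30, against 11.75, 11.42 and 11.48 in wild-type mice. Those groups did not overlap either, and the difference was -0.29 (SE 0.09, limma adjusted p = 0.550).

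Prostaglandin D synthase (Ptgds) is among the most abundant secreted proteins of meninges. Its signal was 13.68, 13.65 and 13.60 in Gb5-deficient mice, against 13.77, 13.73 and 13.75 in wild-type mice. The groups were apart although the difference was only -0.10 (SE 0.04, limma adjusted p = 0.553), and a second probe gave -0.24. Efemp1, which encodes fibulin-3, had a difference of -0.35 with no overlap, and array 5 was the lowest; without it the difference was -0.20.

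The rest of that group stayed near 0. Fibronectin (Fn1), the adhesive glycoprotein, had 0.11, and -0.02 without array 6. The basement membrane linker nidogen-1 (Nid1) had -0.07, the procollagen peptidase enhancer Pcolce -0.07, the complement C1 inhibitor Serping1 -0.0021 and fibulin-1 (Fbln1) 0.01. Islr, a leucine-rich secreted protein of mesenchymal cells, had -0.17. Their groups overlapped in every case.

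All 6 barrier transporters and junction genes had values below 0, against 43.3% of all genes, with a median of -0.25. None passed in limma, and 2 (Slc47a1 and Gjb2) had an unadjusted p under 0.05 with a lower value, against 2.86% of all genes. Slc47a1, an exporter of organic cations, read 6.52, 6.28 and 6.83 in Gb5-deficient mice, against 7.38, 7.06 and 6.96 in wild-type mice. The groups did not overlap, and the difference was -0.59 (SE 0.17, limma adjusted p = 0.493). Gjb2, which encodes a connexin, the gap junction protein of leptomeningeal cells, read 10.09, 10.47 and 10.31, against 10.58, 10.51 and 10.63 in wild-type mice, a difference of -0.28. Its groups were separate by a small margin. The proline transporter Slc6a20a had -0.21 without overlap, by a narrow margin, which became -0.05 when array 5 was left out.

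E-cadherin (Cdh1), the adherens junction protein of the arachnoid barrier layer, read 8.98, 8.22 and 8.92 in Gb5-deficient mice, against 9.30, 9.07 and 8.82 in wild-type mice. Array 5 was far below the rest and the others overlapped, so the difference of -0.36 was -0.12 without that array. The GABA transporter Slc6a13 and the organic anion transporter Slc22a6 had -0.10 and -0.03 with overlapping groups. A second, dimmer Slc22a6 probe gave -0.34 without overlap.

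All 4 forkhead and retinoid-binding members had values below 0, against 43.3% of all genes, with a median of -0.20. None passed in limma, and Foxc2 had an unadjusted p under 0.05 with a lower value, against 2.86% of all genes. Foxc2, a forkhead factor of mesenchyme and lymphatic endothelium, read 8.15, 8.24 and 8.35 in Gb5-deficient mice, against 9.01, 8.85 and 8.86 in wild-type mice. Each group was tight and the gap between them was wider than either, with a difference of -0.66 (SE 0.11, 95% interval from -0.90 to -0.42, limma adjusted p = 0.169). It stayed between -0.71 and -0.60 whichever array was left out, but without array 6 the limma adjusted p was 0.472. Foxc2 had 1 probe, so no second probe could be set beside it. Its relative Foxc1, which is required for meningeal development in mice, gave -0.08 with overlapping groups, and 0.10 without array 6. Foxd1 had -0.23 and the retinoic acid carrier Crabp2 -0.17, also with overlap, and Crabp2 had -0.038 without array 4. The small cytosolic proteins galectin-1 (Lgals1) and S100a6, a calcium-binding protein, had -0.02 and 0.18.

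**Figure D3:**
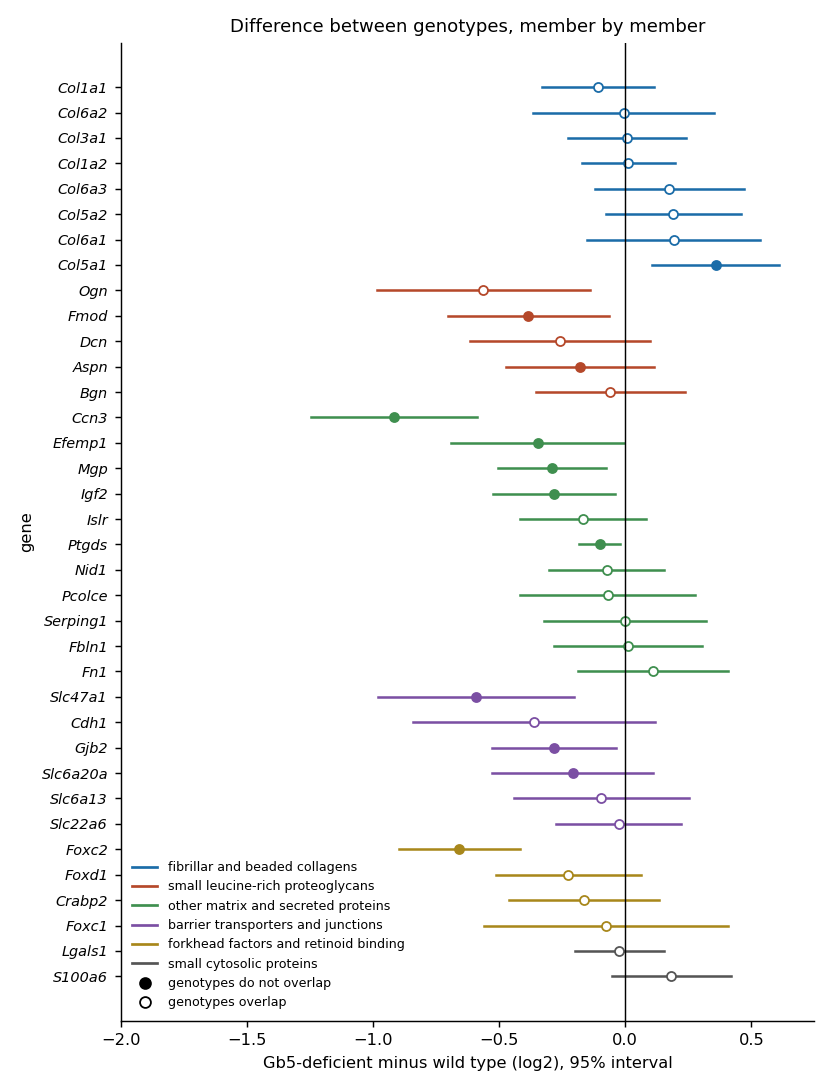
Gb5-deficient minus wild type (log2) for the 36 members above the filter with the 95% interval of the limma fit, coloured by role; filled points mark genes whose groups did not overlap. Collagens lie around and above 0, and the lowest points are Ccn3, Foxc2, Slc47a1 and Ogn; intervals are not adjusted for the number of genes tested.

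Members did not share one profile over the arrays. With the genotype means subtracted, Pearson's r over the 6 arrays had a median of 0.20 over the 630 pairs of members, against 0.018 over all pairs of the 14067 genes, as a description with pairs that share arrays. Within the collagens the median over 28 pairs was 0.49, within the proteoglycans (10 pairs) 0.21 and within the transporters and junction genes (15 pairs) -0.12. The ranks of arrays given next were taken without that subtraction, so they contain the genotype difference. In a list drawn up with earlier results known and leaning low, they restate that lean and are not separate support. Array 4 was the lowest of the 6 for 13 of the 36 members, or 36.1%, against 8.57% of all genes. Array 5 was the lowest for 11, or 30.6%, against 19.5% of all genes. Wild-type array 1 was the highest for 15 members, or 41.7%, although it was the highest for 15.7% of all genes and the lowest for 31.8%. Array 4 was the lowest for 3 of 5 proteoglycans, 5 of 11 other matrix and secreted proteins and 2 of 4 forkhead and retinoid-binding genes. Array 5 was the lowest for 3 of 6 transporters and junction genes, 4 of 11 other matrix and secreted proteins and 3 of 8 collagens.

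Where a gene had more than 1 probe above the filter, its probes did not always point the same way. Of 19 such members, 8 had 1 sign on all probes and 11 had both. In 4 genes, Fmod, Ccn3, Igf2 and Ptgds, the groups did not overlap on any probe, with lower values in Gb5-deficient mice throughout. No share over all genes with several probes is at hand for these counts, so they only describe the members. Counted by probe, 22 of 63 lay wholly below wild type, against 6.04% of all probes, or 16 of 57 with Fmod left out, and 2 lay wholly above, against 9.09% of all probes.

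The summed linear signal of the members was 42094 to 44675 on the Gb5-deficient arrays, against 46333 to 47357 on the wild-type arrays, so the sums did not overlap. Among lists of other cell types and tissues, some sums were also apart. The oligodendrocyte list (9 of 10 genes above the filter) summed to 44451 to 46823, against 48814 to 49028 in wild-type mice. The blood list (6 of 7) summed to 2753 to 3420, against 4276 to 4713 in wild-type mice. Of the 6 genes 3 were lower and 3 higher. Alas2, the haem synthesis enzyme of red cell precursors, was at -2.08 and the red cell anion exchanger Slc4a1 at -1.90. Hbb-b2, the brightest gene of the list, was at -0.60. Hba-a2, S100a8 and S100a9 were at 0.08, 0.37 and 0.37. None of the oligodendrocyte genes (6 lower, 3 higher) or blood genes passed in limma. Lower values with an unadjusted p under 0.05 were found for 4 oligodendrocyte and 3 blood genes, and for 2.86% of all genes. Without wild-type array 1, Alas2 (-2.61, limma adjusted p = 0.00106) and Slc4a1 (-2.40, limma adjusted p = 0.000714) did pass. The part of these lists in the values of the meningeal genes was not tested. Summed signal rests on the brightest probes.

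Within each genotype, choroid plexus genes (11 of 12) had the same order of arrays as the members, but not over all 6 arrays. The mean deviation of the members was -0.21, -0.20 and -0.03 on arrays 4, 5 and 6, against 0.03, -0.01 and -0.02 on wild-type arrays 1, 2 and 3. That of the plexus genes was -1.14, 0.28 and 0.54 on arrays 4, 5 and 6, against 1.13, -0.55 and -0.59 on wild-type arrays 1, 2 and 3. The sums of the plexus genes overlapped (4648 to 16459 against 12392 to 18462). Transthyretin (Ttr), its main secreted product, had a difference of -0.56, and 0.089 without array 4, and the coagulation factor F5 had -0.53, and 0.036 without wild-type array 1. Of the 11 genes, 7 were lower and 4 higher. Array 4, lowest for many members, was also lowest for this list, and array 1, highest for many members, was highest. What the plexus contributed to Igf2 or Ptgds was not tested.

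Endothelial (9 of 10), mural (9 of 10), astrocyte and Bergmann glia (10 of 10), Purkinje (8 of 10) and granule cell (9 of 10) lists held no gene that passed in limma. Their medians were -0.04, 0.02, -0.0083, 0.05 and 0.01. Over the 9 lists of other cell types, with 81 genes, 8 lower and 4 higher values had an unadjusted p under 0.05. The shares over all genes were 2.86% lower and 5.7% higher. Of those 8 lower values, 4 were of oligodendrocyte and 3 of blood genes. For the mural list (4 lower, 5 higher) the summed signal was 4748 to 5393, against 5396 to 5854 in wild-type mice, just apart. That sum rests largely on Rgs5, the brightest gene of the list, at -0.24 with no overlap. The mean log2 levels of the list overlapped (deviations of -0.19 to 0.07, against -0.05 to 0.08 in wild-type mice). The contractile light chain Myl9 was at -0.32 and the channel Kcnj8 at 0.33. For the other 4 of these lists the sums overlapped. The endothelial genes Tie1 and Emcn had 0.27 and -0.25, and Gjb6 and Aldh1l1 of astrocytes -0.26 and 0.22. Cacna1g and Slc1a6 of Purkinje cells had 0.32 and 0.13, while Car8 had -0.13 (list: 3 lower, 5 higher). Grin2c and Fat2 of granule cells had 0.51 and 0.35, while Gabra6 had -0.18 (list: 4 lower, 5 higher). Ermn and Mal of myelin had -0.30 and -0.29, while Mag had 0.18 (list: 6 lower, 3 higher). Microglia and border macrophages (10 of 10; 4 lower, 6 higher) had a median of 0.01 and overlapping sums. Csf1r had 0.22, Tmem119 0.13 and Cd163 -0.12.

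**Figure D4:**
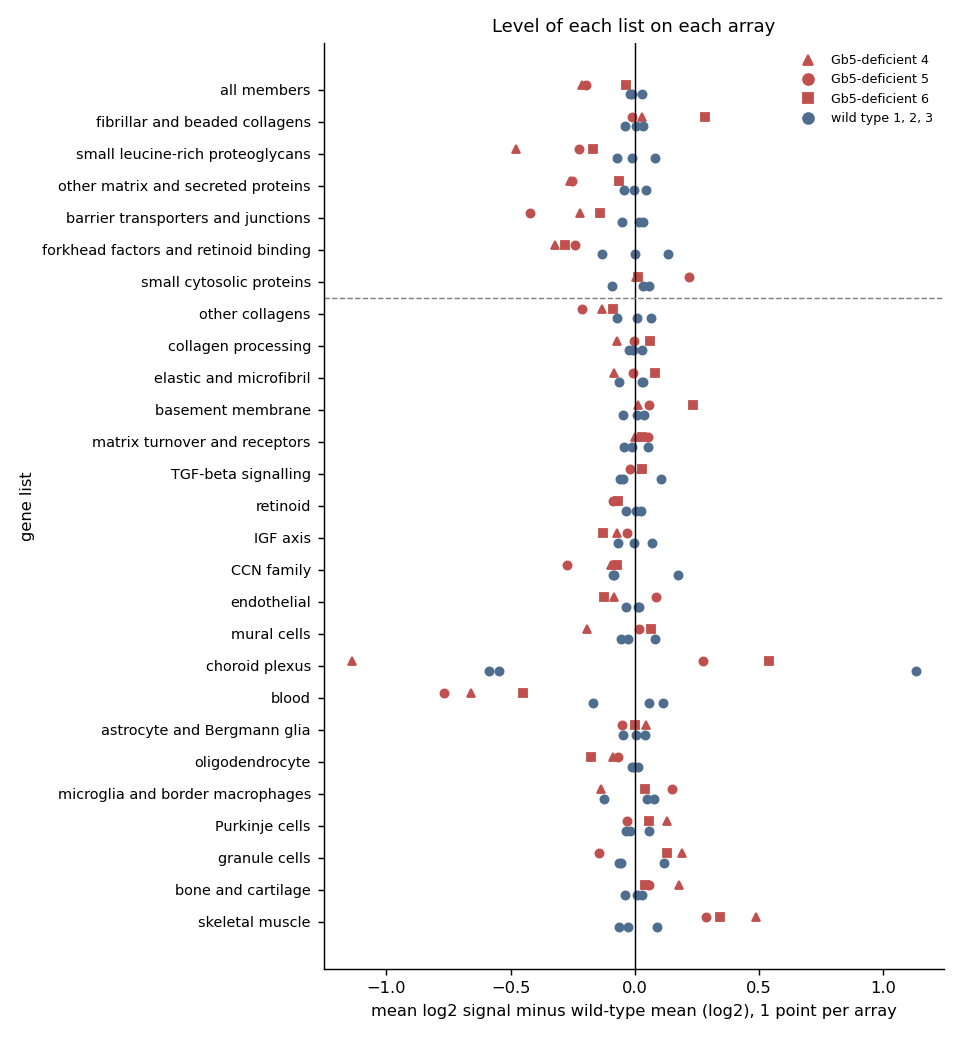
Mean log2 signal of each gene list on each array, minus the wild-type mean of its genes; red marks are Gb5-deficient arrays (triangle 4, circle 5, square 6) and blue circles wild-type arrays, with the member groups above the dashed line. The proteoglycan, other matrix and secreted, transporter and forkhead groups have all red marks left of all blue ones, and the collagen and small cytosolic groups do not.

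Lists of genes related to the members in matrix and signalling pathways had medians between -0.16 and 0.14. For the counts below 0 in these lists, the share over all genes was 43.3%. Among other collagens (12 of 13 above the filter) Col12a1, a fibril-associated collagen, was the one gene that passed. It read 4.44, 4.74 and 4.43 in Gb5-deficient mice, against 6.92, 6.31 and 6.65 in wild-type mice (log2 difference -2.09, limma adjusted p = 0.00537). Its Gb5-deficient mean of 4.53 lay under the filter of 4.70, so Col12a1 exceeded the filter only through its wild-type signal. Without array 6 it had a similar difference, -2.04, that did not pass (limma adjusted p = 0.0622). Of the other 11, 3 were below 0 and 8 above, and the whole list had a median of 0.02. Col18a1, a vascular and plexus basement membrane collagen, had 0.44, Col4a5 -0.38 with overlapping groups and Col4a1 0.09.

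Collagen processing genes (15 of 19) had a median of 0.0019, with 7 below 0. The collagen chaperone Serpinh1 was at -0.30 and the crosslinking enzyme Lox at -0.25. Elastic fibre and microfibril genes (11 of 13; Mfap2 0.20, Fbln5 -0.19) had a median of -0.04. Basement membrane genes (10 of 10; Lama1 0.27, Hspg2 0.22) had one of 0.14, with 2 below 0. Genes of matrix turnover and matrix receptors (13 of 14; Ddr1 -0.30, Mmp11 0.25) had a median of 0.05, and their summed signal was 11999 to 12566, against 12571 to 12603 in wild-type mice, barely apart.

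TGF-beta pathway genes (12 of 14; Smad2 0.34, Tgfbr1 -0.21) had a median of -0.01 and IGF axis genes (10 of 13; Igf2r -0.22, Igf2bp3 -0.21) one of -0.08. The other CCN family genes (4 of 5; Ccn1 -0.25, Ccn6 -0.21) were all below 0, with a median of -0.16. Retinoid genes (12 of 13) had a median of -0.08 and 8 below 0. The retinoic acid receptor Rarb read 7.52, 7.04 and 7.12, against 7.77, 7.71 and 7.61 in wild-type mice, a difference of -0.47 with no overlap, and the binding protein Crabp1 had 0.42. Summed signal of the retinoid list was 3774 to 4405, against 4620 to 4758 in wild-type mice. That sum rests largely on Aldh1a1, the brightest gene of the list. It read 11.20, 10.52 and 10.89, against 11.33, 11.34 and 11.13 in wild-type mice, with overlapping groups. Over these 9 lists, with 98 genes, Col12a1 alone passed in limma, and 5 lower and 2 higher values had an unadjusted p under 0.05. The shares over all genes were 2.86% lower and 5.7% higher.

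**Figure D5:**
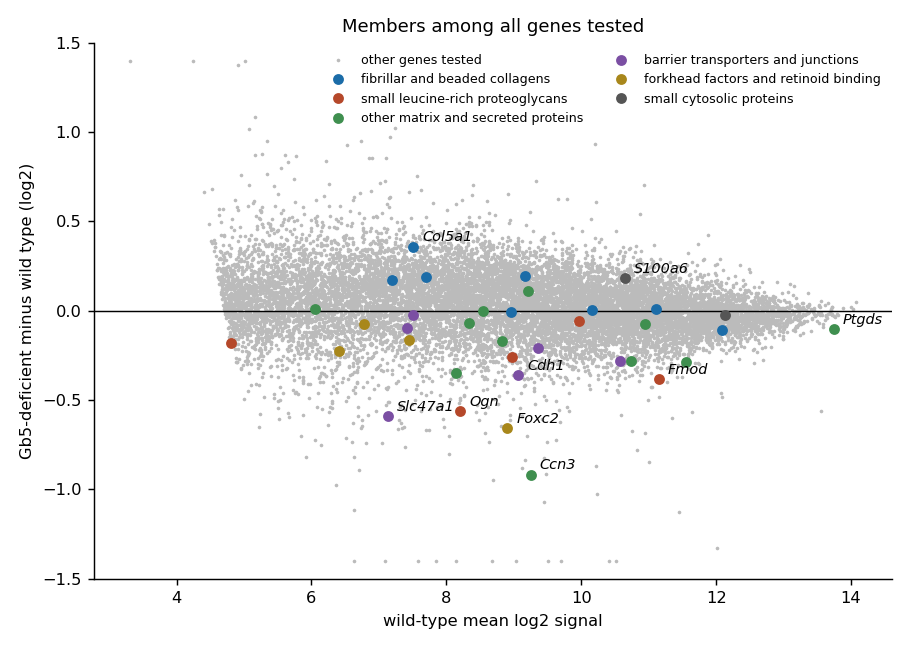
Gb5-deficient minus wild type (log2) against the wild-type mean log2 signal for every gene tested, members coloured by role and 14 other genes beyond 1.4 drawn at that limit. Ccn3 and Foxc2 lie at the lower edge of the cloud at their signal, and the collagens lie inside it.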

How the data were processed

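Total RNA from brain tissue was hybridised to 6 single-colour arrays, 3 per genotype. The values as deposited are log2 signals of each probe on each array, made with RMA and Partek per the submitters' processing notes (versions not given in the sources used here); RMA's quantile normalization hides any global change in RNA amount. Scanner files and detection calls were not used here, and the number of arrays limits the precision (median SE 0.12). Of 45101 probes, 34945 had 1 annotated gene and 932 several. Symbols were updated through a RefSeq table (GRCm38.p6). Each of 18193 genes took its brightest single-gene probe by mean; 14067 exceeded the 30th percentile of probe means (4.70). limma 3.58.1 in R 4.3.3 (intensity trend, two-sided, Benjamini-Hochberg over these genes, threshold 0.05) compared genotypes and was tested on simulated data. Members and lists were chosen with earlier results of these data known. Named genes were all members, Gnb5, and of each other list the passing genes or else the 2 with the largest change. Any further gene named from those lists, such as Col4a1 and Col18a1, was chosen after its values were seen. Alternatives were other filters, normalizations, probe choices, variance models, array weights and each array left out. Promoter windows came from RefSeq.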

Additional observations from a re-analysis of the deposited data

How the results depend on the processing

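No member passed the adjusted threshold in any of the alternatives, in which the lowest adjusted p was 0.0899 (Ccn3) and 0.0903 (Foxc2). The number of passing genes, 5 in all, was 8 with no filter, 3 with a filter at the 50th percentile, 11 when each probe was tested on its own, and 2 to 10 when single arrays were left out. The share of members below 0 (75% of 36, against 43.3% of all genes) was 61.1% to 80.6% without single arrays and 68.6% to 83.3% otherwise. The median of the members ran from -0.15 (without Gb5-deficient array 6) to -0.091 without single arrays. The count of members wholly below wild type was 11 to 16 without single arrays. In the other alternatives it was 10 to 22, the 22 being of 63 probes. This count was an alternative added after seeing the data. The share of all genes wholly below was 4.82% with all arrays and 6.47% without Gb5-deficient array 6, and that of all probes was 6.04%. No paired analysis was possible because the genotypes share no replicate number, and the values were already log2, so no pseudocount was tried.

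Members near 0 changed sign; the cause was not tested. With the mean of a gene's probes Col1a1 read 0.086, Col3a1 -0.064, Col6a2 0.025, Fbln1 -0.078, Lgals1 0.0031, Nid1 0.055 and the receptor Igf2r 0.093. With array medians subtracted Col1a2 read -0.015, Col3a1 -0.021 and Fbln1 -0.015. With a second quantile normalization Fbln1 read -0.011. With array weights Col6a2 read 0.10, Fbln1 -0.081, Pcolce 0.084 and Serping1 0.033. Leaving out single arrays gave ranges across 0: Bgn -0.17 to 0.074, Col1a1 -0.18 to 0.0082, Col1a2 -0.057 to 0.048, Col3a1 -0.080 to 0.053, Col6a2 -0.16 to 0.11, Fbln1 -0.064 to 0.095, Fn1 -0.024 to 0.22, Foxc1 -0.27 to 0.10, Lgals1 -0.074 to 0.047, Nid1 -0.13 to 0.024, Pcolce -0.20 to 0.036, Serping1 -0.13 to 0.12, Slc22a6 -0.090 to 0.031 and Slc6a13 -0.26 to 0.031. Outside the members, F5 ran from -0.85 to 0.036, Ttr from -0.93 to 0.089 and Fbln5 from -0.30 to 0.0087. Without single arrays, further members kept their sign but moved by over 1.5 times: Col5a2 read 0.099, Col6a1 0.027 and Col6a3 0.070 without Gb5-deficient array 6, Fmod -0.22, Igf2 -0.18, Gjb2 -0.18 and Crabp2 -0.038 without array 4, Efemp1 -0.20, Slc6a20a -0.052, Cdh1 -0.12 and S100a6 0.096 without array 5, Dcn -0.14, Aspn -0.079, Mgp -0.19 and Col6a3 0.10 without wild-type array 1, and Islr -0.093 and Dcn -0.44 without wild-type array 2. When each probe was tested on its own, 11 members had both signs, among them Dcn, Col5a1 and Col5a2. In the other alternatives, the members not named as changing sign kept it wherever they were measured.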

Other observations

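Several collagen and basement membrane genes had probes that disagreed. The brighter Col5a2 probe gave 0.19 with overlapping groups, while the other, at 7.59, 7.33 and 7.51 in Gb5-deficient mice against 7.70, 7.64 and 7.60 in wild-type mice, gave -0.17 without overlap. The brighter Col1a1 probe gave -0.11, and the dimmer one, at 8.61, 8.60 and 8.84 against 8.44, 8.27 and 8.50, gave 0.28 without overlap. Nid1 gave -0.07, -0.14 and 0.38 on its 3 probes. A choice of probe therefore sets the direction of these genes, and the array's annotation does not tell which transcripts each probe sees.

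Genes best known from skeletal muscle, of which 4 of 8 exceeded the filter, summed to 292 to 345 on the Gb5-deficient arrays, against 219 to 241 on the wild-type arrays. The fast troponin Tnnc2 had a difference of 0.52 and the calcium pump Atp2a1 one of 0.49, and neither passed in limma. A higher value with an unadjusted p under 0.05 was found for 3 of the 4, and for 5.7% of all genes. The list is dim, and its other genes lay under the filter of 4.70. Mylpf, at 4.81 in Gb5-deficient and 4.67 in wild-type mice, exceeded it only through the Gb5-deficient mean. Its higher value is therefore partly set by the filter. Of bone and cartilage genes 4 of 10 exceeded the filter, with sums of 2432 to 2497, against 2003 to 2094 in wild-type mice. The bone matrix gene Dmp1 read 10.96, 10.93 and 10.91, against 10.69, 10.64 and 10.56, and did not pass (difference 0.30, limma adjusted p = 0.423), and the cartilage collagen Col2a1 had 0.28. The other 2 bone and cartilage genes were below 0, and Dmp1, the brightest, makes up most of that sum. These sums were higher in Gb5-deficient mice while that of the meningeal genes was lower.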
